A study of Mus musculus with 4 samples.

Results

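The mitosis genes are a list of 34 genes that carry a cell through chromosome segregation and division. They were chosen by symbol, all 34 symbols were found in the 4 count matrices, and they are 34 of the 32285 genes counted. CD8-positive T cells from B16F10 tumours, a mouse melanoma line, were read cell by cell with droplet-based 5-prime RNA libraries. The groups were sgArid1a, in which the guide targets Arid1a (part of the BAF complexes that slide and evict nucleosomes), and sgScr, a scrambled guide, with 2 libraries each. Both groups came from C57BL/6J mice aged 6 to 8 weeks, and live cells positive for CD45, CD3 and CD8 were sorted in both. The labels leave unsaid which cells received the guide, whether tumours or animals were pooled, or that replicates came from separate animals, so p-values measure only the spread between these libraries, which may be technical.

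In a dividing cell, CDK1 bound to cyclin A or B starts mitosis, Aurora and Polo kinases build the spindle, and kinetochore proteins tie chromosomes to its microtubules. The spindle checkpoint holds the anaphase-promoting complex in check until every chromosome is attached, after which the complex has the cyclins destroyed and the central spindle proteins let the cell cleave. Activated CD8 T cells divide fast, resting naive T cells hold these genes low, and many of the promoters carry a CHR element (bound by the MuvB complex) and CCAAT boxes (bound by NF-Y).

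Promoters are shown for 5 members because the results below turn on them. Birc5 and Kif23 mark the ends of the range of group differences in all T cells. Cdc20 had the highest mean ratio of cells with G2/M genes alone over cells with both S phase and G2/M genes. Ube2c was called higher and Mki67 lower in dividing cells. Those calls change with the settings given there, and in cycling cells the counts called were near the shares over all genes. Each sequence runs from 250 bases before to 50 bases after the gene's start as RefSeq gives it (GRCm38.p6), 5′ to 3′ on the gene's strand. Capitals mark TTTGAA or its reverse complement TTCAAA (the CHR letters) and CCAAT or its reverse complement ATTGG, which in Ube2c overlap once.
Birc5: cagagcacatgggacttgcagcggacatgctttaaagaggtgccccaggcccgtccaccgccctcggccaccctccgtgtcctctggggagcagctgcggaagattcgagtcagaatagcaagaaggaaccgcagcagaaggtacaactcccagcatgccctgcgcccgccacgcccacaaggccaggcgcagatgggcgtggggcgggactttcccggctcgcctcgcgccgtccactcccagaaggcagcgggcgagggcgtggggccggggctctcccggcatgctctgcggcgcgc
Kif23: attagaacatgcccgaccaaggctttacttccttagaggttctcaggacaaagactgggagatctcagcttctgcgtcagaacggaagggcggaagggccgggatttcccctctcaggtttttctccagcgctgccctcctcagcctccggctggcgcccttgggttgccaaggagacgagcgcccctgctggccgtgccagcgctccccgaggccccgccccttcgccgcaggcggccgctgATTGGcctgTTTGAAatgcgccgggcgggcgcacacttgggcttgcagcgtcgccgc
Ube2c: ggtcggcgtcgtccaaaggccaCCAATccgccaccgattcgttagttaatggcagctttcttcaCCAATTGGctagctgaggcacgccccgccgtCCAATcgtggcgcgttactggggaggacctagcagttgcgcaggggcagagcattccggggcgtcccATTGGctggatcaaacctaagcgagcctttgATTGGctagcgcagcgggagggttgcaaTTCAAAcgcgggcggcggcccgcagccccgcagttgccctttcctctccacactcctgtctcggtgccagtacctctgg
Mki67: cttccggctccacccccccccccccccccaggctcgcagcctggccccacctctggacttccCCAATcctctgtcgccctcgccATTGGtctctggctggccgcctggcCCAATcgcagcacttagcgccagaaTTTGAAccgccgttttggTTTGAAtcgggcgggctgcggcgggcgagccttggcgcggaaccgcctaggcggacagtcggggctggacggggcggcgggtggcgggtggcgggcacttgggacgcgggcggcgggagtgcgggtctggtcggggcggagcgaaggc
Cdc20: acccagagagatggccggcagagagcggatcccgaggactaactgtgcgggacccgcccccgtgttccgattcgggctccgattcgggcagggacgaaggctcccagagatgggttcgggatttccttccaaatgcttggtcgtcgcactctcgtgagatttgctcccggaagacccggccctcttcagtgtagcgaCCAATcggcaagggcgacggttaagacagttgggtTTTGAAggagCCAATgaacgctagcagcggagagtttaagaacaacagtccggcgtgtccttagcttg
The windows are chr11:117848987-117849286 on the plus strand for Birc5, chr9:61946750-61947049 on the minus strand for Kif23, chr2:164769679-164769978 on the plus strand for Ube2c, chr7:135716330-135716629 on the minus strand for Mki67 and chr4:118437294-118437593 on the minus strand for Cdc20. RefSeq windows were matched for 29 members, in 30 promoters because Prc1 had 2. TTTGAA stood on either strand in 23 of the 30 (76.7%), against 17.9% of all 32851 promoters of that length. CCAAT stood in 22 of the 30 (73.3%), against 37.4% of all promoters, and both stood in 19 (63.3%), against 6.95%. The CHR letters lay close to the start (median position 2 bases after it, 29 matches), and the CCAAT letters lay further upstream (median position -69.5 counted from it, 54 matches). Birc5 held neither set of letters in this window and Kif23 held both, and a match of letters is not a bound site.

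Reading the 4 libraries needs a few facts of the whole series. After filtering there were 10695 and 12772 T cells in sgArid1a and 7636 and 7157 in sgScr, with 39285383 and 81450019 against 35642152 and 32201336 UMIs (unique molecule counts). The median cell had 2407 and 4024.5 UMIs in sgArid1a and 3750 and 3597 in sgScr, so cells were compared after each had been thinned at random to 1500 UMIs. That left out 1767 and 331 shallower cells in sgArid1a and 191 and 235 in sgScr. Arid1a itself stood at 74.1 and 72.6 CPM (UMIs of a gene per 1000000 UMIs of its library) in sgArid1a and 85.2 and 93.6 CPM in sgScr, and an edited gene can still be transcribed. The 6 T cell markers summed to 5275 and 5302 CPM against 4891 and 4955 CPM, and the 7 melanoma markers to 1.76 and 2.07 CPM against 2.58 and 2.33 CPM. Cd3e stood at 874 and 947 CPM in sgArid1a and 875 and 878 CPM in sgScr, and Cd8a at 658 and 702 CPM against 525 and 549 CPM. Pcna, a DNA replication clamp that is no member, stood at 120.1 and 119.5 CPM in sgArid1a and 71.0 and 75.2 CPM in sgScr. Pairs of libraries shared 74 to 218 cell barcodes.

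Every mitosis gene was higher in sgArid1a than in sgScr when all T cells of a library were summed. The 34 members together held 1977 and 1991 CPM in sgArid1a and 917 and 1014 CPM in sgScr, a ratio of 2.06. By edgeR's quasi-likelihood test with Benjamini-Hochberg adjustment over 12792 genes, 34 of 34 members were called higher, beside 28% of all genes tested that were called higher. The median log2 fold change over the members was 1.03, against -0.02 over all genes tested. For no member did the libraries of the groups overlap, but the share of all genes without overlap was not computed. With 2 libraries against 2, an exact permutation test cannot go below p = 0.333. In these sums, more cells with mitosis genes and more of their RNA per cell cannot be told apart. Markers of other cells differed between the groups as well. The 4 natural killer cell markers, of which Tyrobp and Fcer1g also mark innate-like T cells, summed to 41.5 and 35.2 CPM in sgArid1a and 15.8 and 13.2 CPM in sgScr, and the 5 B cell markers to 92.8 and 91.7 CPM against 43.8 and 52.8 CPM, with 1 or 2 of the B cell markers at 0 in each library. Their part in the result was not tested.

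**Figure D1:**
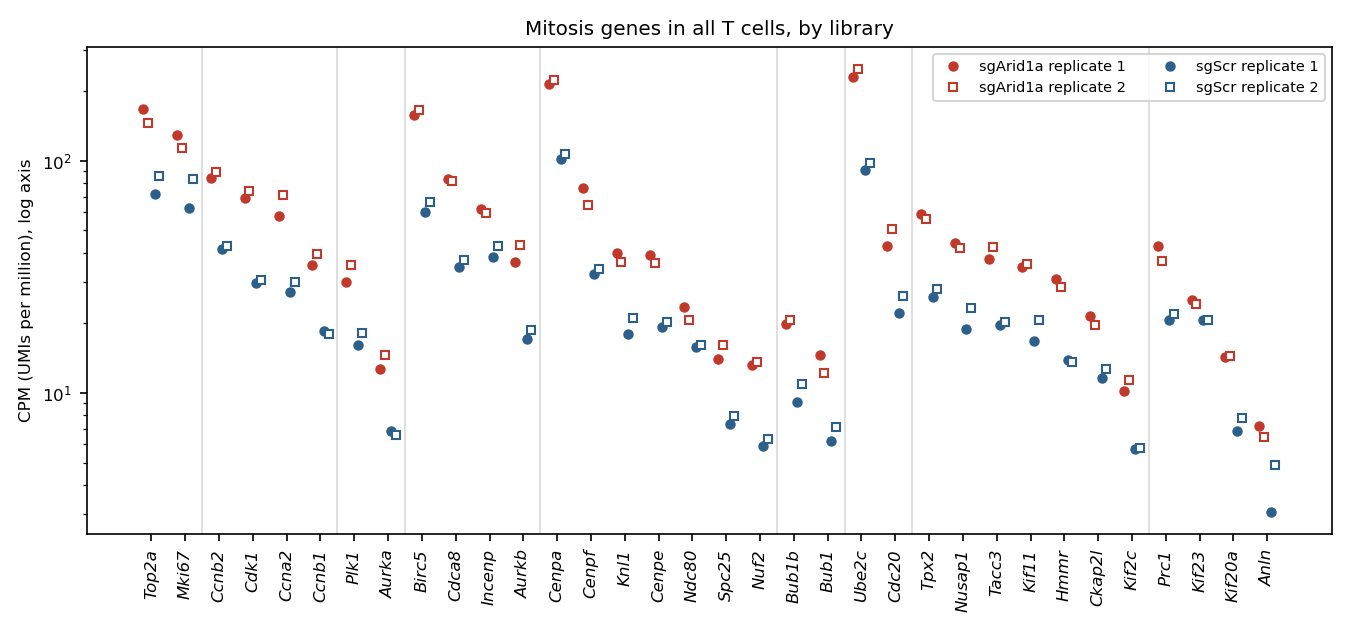
Level of each mitosis gene in all T cells, in CPM on a log axis, with one point per library and vertical lines between role groups. The red sgArid1a points lie above the blue sgScr points for all 34 genes, and the gap is narrowest for Kif23.

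The cyclins and their kinase rose together, as did the chromosome-bound proteins. Ccnb2, a B-type cyclin, had 84.1 and 89.0 CPM in sgArid1a, against 41.6 and 42.8 CPM in sgScr. Its log2 fold change was 1.07 ± 0.06 (SE; edgeR adjusted p = 2.5e-08), and the other members of its group were Cdk1 (1.28), Ccna2 (1.21) and Ccnb1 (1.08). Top2a, which untangles sister DNA strands, had 167 and 145 CPM in sgArid1a, against 72.0 and 86.1 CPM in sgScr. Mki67, which coats mitotic chromosomes and is the common proliferation marker, had 128 and 113 CPM in sgArid1a, against 62.6 and 83.2 CPM in sgScr. Its log2 fold change of 0.76 was below that of Top2a (1.01), and the sgScr libraries were further apart for Mki67 than the sgArid1a libraries.

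Within the chromosomal passenger complex, which corrects faulty attachments and later sits at the cleavage site, the subunits were raised unequally. Birc5 (Survivin) had 158 and 166 CPM in sgArid1a, against 60.3 and 66.4 CPM in sgScr. That was the largest difference among the 34, a log2 fold change of 1.38 ± 0.06 (SE; edgeR adjusted p = 4.4e-09). Cdca8 (Borealin) rose by 1.22 and the kinase Aurkb by 1.20 on the log2 scale. Incenp, the scaffold of the same complex, rose by 0.61, with 61.7 and 59.7 CPM in sgArid1a against 38.3 and 43.0 CPM in sgScr. Of the spindle kinases, Plk1 had 29.99 and 35.5 CPM in sgArid1a, against 16.1 and 18.1 CPM in sgScr, and Aurka rose by 1.05.

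The kinetochore members differed as much among themselves. Cenpa, the histone H3 variant that marks the centromere, had 214 and 222 CPM in sgArid1a, against 102 and 107 CPM in sgScr. The log2 fold changes were 1.09 for Cenpa, 1.16 for Nuf2, 1.10 for Cenpf, 1.01 for both Spc25 and Knl1 and 0.96 for the motor Cenpe. Ndc80, which forms a microtubule-binding rod with Nuf2 and Spc25, rose by only 0.49. Bub1b (BubR1, a checkpoint protein) had 19.9 and 20.6 CPM in sgArid1a, against 9.12 and 10.96 CPM in sgScr, and its partner Bub1 rose by 1.02.

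Ube2c, which loads ubiquitin for the anaphase-promoting complex, had 229 and 248 CPM in sgArid1a, against 91.3 and 97.6 CPM in sgScr. Its log2 fold change of 1.36 ± 0.06 (SE; edgeR adjusted p = 4.4e-09) stood next to 0.99 for Cdc20, the activator of the same complex. Of the microtubule proteins, Tpx2, which activates Aurora A, had 58.8 and 56.2 CPM in sgArid1a, against 25.9 and 28.0 CPM in sgScr. The other 6 of that group (Hmmr, Nusap1, Tacc3, Kif11, Kif2c and Ckap2l) rose by 0.79 to 1.14 on the log2 scale.

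The central spindle and cytokinesis genes had the smallest median rise of the role groups, 0.87. Prc1, which bundles the midzone microtubules, had 43.0 and 36.8 CPM in sgArid1a, against 20.7 and 21.7 CPM in sgScr. Kif23, the midzone motor that guides cleavage, had 25.0 and 24.2 CPM in sgArid1a, against 20.5 and 20.7 CPM in sgScr. Its log2 fold change of 0.28 ± 0.07 (SE; edgeR adjusted p = 0.0048) was the smallest of the 34. Exons of 9 members overlap a gene on the other strand in GENCODE M21 (Ccna2, Cdc20, Cdca8, Ckap2l, Kif20a, Nusap1, Prc1, Tacc3 and Ube2c), and whether the counting used strand is not stated in the files or labels.

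Few cells carried most of this signal. With each cell at 1500 UMIs, 12.2% of 8928 and 10.6% of 12441 sgArid1a cells held 3 or more member UMIs, against 3.33% of 7445 and 3.70% of 6922 sgScr cells. The 95% Wilson intervals, which cover counting error only, were 11.5 to 12.9% and 10.1 to 11.2% in sgArid1a, and 2.95 to 3.76% and 3.28 to 4.17% in sgScr. An exact permutation test of 2 libraries against 2 cannot go below p = 0.333, so no test was run on these shares, which do not overlap between groups. Without thinning the shares were 16.3 to 19.7% in sgArid1a and 7.11 to 7.56% in sgScr. Cells with 12 or more member UMIs were 3.81 and 3.08% of sgArid1a cells and 1.25 and 1.60% of sgScr cells. At the low end, 68.9 and 71.4% of sgArid1a cells and 81.6 and 80.9% of sgScr cells had no member UMI at this depth.

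Naive-like cells, which should lack mitosis genes, gave the background of this count. Of them 0.0636 and 0.198% held 3 or more member UMIs in sgArid1a and 0.0497 and 0.110% in sgScr, at median depths of 1788 and 2950 against 3488 and 3343 UMIs before thinning. At least 1 member UMI was common there, in 18.6 and 17.4% of sgArid1a and 14.02 and 14.9% of sgScr naive-like cells, and is not read as division.

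The 34 genes were not equally tied to dividing cells. Cenpa, Kif23, Ndc80 and Incenp were found without any other member in 46.5, 49.9, 48.8 and 45.7% of the cells that held them. In naive-like cells their UMIs were present in 6.64, 1.66, 1.84 and 2.005% of cells, while the other 30 members were present in 0 to 0.578%. Only 40.9 to 45.6% of the cells with one of these 4 genes were cycling by other genes, against 67.3 to 90.2% for the other 30. In that range Bub1 was highest and Cdc20 lowest.

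Cell states were set by clustering without the mitosis genes and without the other cell cycle genes of the lists used here, and named from fixed markers. Replication histone genes were not in those lists, and Hist1h2ae and Hist1h1b led the cycling-like cluster. That cluster therefore cannot be read as set independently of the cell cycle. One cluster, cycling-like, was made almost wholly of cells with mitosis genes: 92.0 and 90.4% in sgArid1a and 93.6 and 93.2% in sgScr held 3 or more member UMIs. In exhausted-like cells, which carry inhibitory receptors and granzymes, the share was 24.1 and 23.5% in sgArid1a and 18.5 and 16.8% in sgScr. The cycling-like cluster, like the exhausted-like one, had 7 of 7 exhausted markers raised at least 1.5-fold over the other T cells. An unnamed cluster led by Ccl1 and Xcl1 had 28.5 and 22.6% in sgArid1a and 14.3 and 17.2% in sgScr. Another unnamed cluster, led by Kit and Penk, had 57.1 and 43.5% in sgArid1a and 13.9 and 22% in sgScr, from only 21 and 23 against 36 and 50 cells with enough UMIs. In the other 10 clusters the share was 0 to 2.22%.

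**Figure D2:**
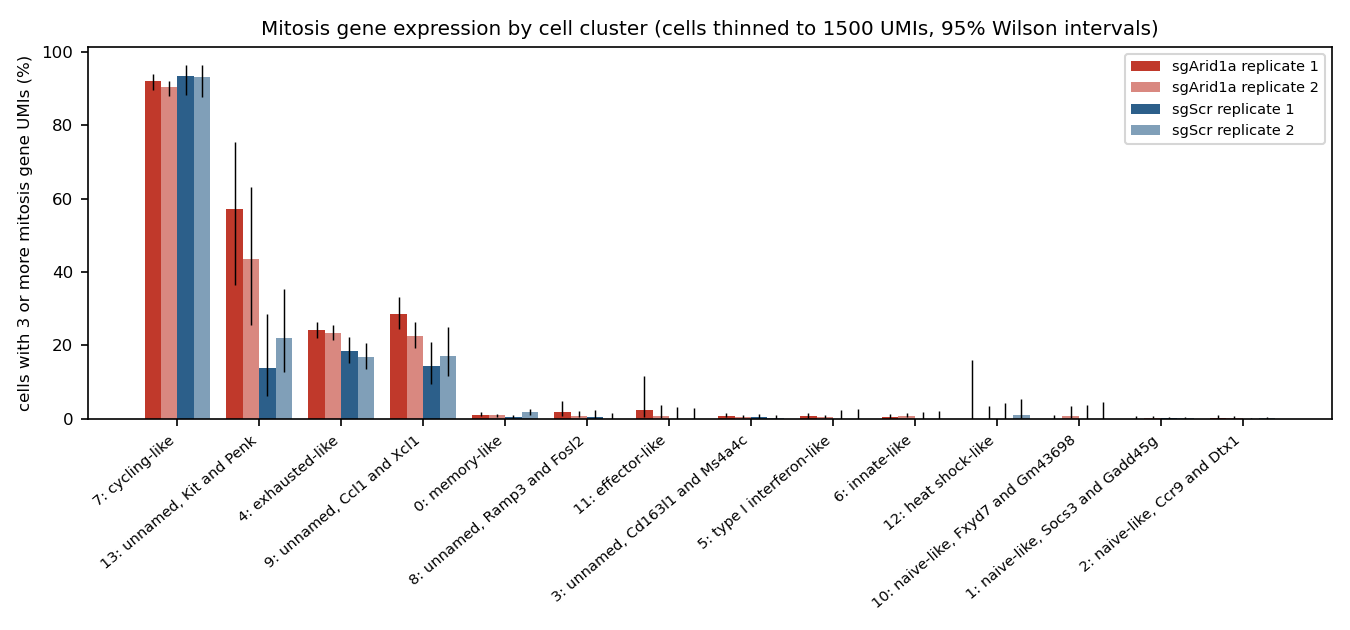
Share of cells with 3 or more mitosis gene UMIs in each cluster and library, at 1500 UMIs per cell, as bars with 95% Wilson intervals. In 4 of the 14 clusters the bars stand far above the floor, and the cycling-like bars of both groups are close to 90% or more.

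Most cells with mitosis genes came from 2 clusters in every library. Cycling-like cells were 52.2 and 53.9% of the sgArid1a cells with 3 or more member UMIs and 52.8 and 48.4% of the sgScr ones. Exhausted-like cells were 32.0 and 32.1% of them in sgArid1a and 32.7 and 28.9% in sgScr. Smaller shares came from the Ccl1 and Xcl1 cluster (10.6 and 9.59% in sgArid1a, 8.06 and 8.20% in sgScr), from memory-like cells (1.84 and 1.66% in sgArid1a, 2.42 and 7.81% in sgScr) and from the Kit and Penk cluster (1.10 and 0.755% in sgArid1a, 2.02 and 4.30% in sgScr). Differences between these shares were not tested. Of the members tested within each cluster, 5 rose and 1 fell in exhausted-like cells (34 tested, beside 7.97% of all genes higher and 6.33% lower), with Birc5 at 0.58 ± 0.08 on the log2 scale (SE; edgeR adjusted p = 0.00011) and Kif23 at -0.46. In those cells 0 members were called by edgeR when either sgArid1a library was left out (11 higher and 1 lower at an unadjusted p under 0.05 with all libraries), 3 without sgScr replicate 2, and DESeq2 called 3.

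In the cluster led by Ccl1 and Xcl1, 12 of 34 members rose and none fell by edgeR (5.16% of all genes higher and 2.67% lower), among them Cdk1 by 0.98 and Birc5 by 0.99 on the log2 scale, and without sgScr replicate 1 only 2 did. In the cycling-like cluster 3 of 34 fell (Mki67, Kif23 and Ckap2l, beside 1.38% of all genes lower), 0 rose (1.87% of all genes higher) by edgeR or DESeq2, and at an unadjusted p under 0.05 the counts were 2 higher and 13 lower. Without sgScr replicate 2 or sgArid1a replicate 2 the count called lower there was 0, and without sgArid1a replicate 1 it was 8.

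Low counts limited the other clusters. In the memory-like cluster 24 members could be tested and 0 were called by edgeR or DESeq2 (0 higher and 1 lower at an unadjusted p under 0.05), where 1.42% of all genes were higher and 0.711% lower. There 3 were called lower without sgArid1a replicate 1 and 2 without sgScr replicate 1, and the median log2 fold change was -0.60 without sgScr replicate 1 and 0.30 without sgScr replicate 2. Ube2c and Top2a rose by edgeR in 1 naive-like cluster (11 tested, beside 2.22% of all genes higher and 0.801% lower), and Ube2c and Ccna2 in the cluster led by Kit and Penk (13 tested, 1.59% higher and 0.602% lower). In an unnamed cluster led by Cd163l1 and Ms4a4c, Ube2c, Birc5 and Top2a rose and Kif23 fell (13 tested, 3.7% higher and 1.58% lower). DESeq2 called 0 members in each of those 3 clusters, and leaving out single libraries gave 0 to 1 calls in the naive-like cluster, 1 to 6 in the Kit and Penk cluster and 0 to 3 in the Cd163l1 and Ms4a4c cluster. In the heat shock-like cluster no test was made, because 1 library held 39 cells of it.

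In the last 6 clusters edgeR and DESeq2 called 0 members with all libraries, and at an unadjusted p under 0.05 edgeR gave 4 higher and 0 lower. In the innate-like cluster that count moved to 4 higher without sgArid1a replicate 1, 2 without sgScr replicate 1, 3 without sgScr replicate 2 and 8 of 34 with no filter on low counts, and none was lower. In the naive-like cluster led by Ccr9 and Dtx1, 9 members were tested, beside 0.6% of all genes higher and 0.124% lower, and 1 was called higher without sgArid1a replicate 1. The type I interferon-like cluster had 5 tested (0.0646% of all genes higher, 0.0775% lower; 1 was called higher with no filter on low counts) and the innate-like cluster 3 (2.87% higher, 1.06% lower). The cluster led by Ramp3 and Fosl2 had 3 tested (0.575% higher, 0.0622% lower). The smallest naive-like cluster and the effector-like cluster had 1 tested each, beside 0.0821% higher and 0.0547% lower in that naive-like cluster and 0.255% higher and 0.106% lower in the effector-like one.

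Cells were also staged by 2 lists that hold no member, 34 S phase genes and 38 G2/M genes, with 3 or more UMIs of a list at 1500 UMIs as the bar. By that rule 19.4 and 18.2% of sgArid1a cells and 8.37 and 8.65% of sgScr cells were cycling (1733 and 2262 against 623 and 599 cells). Cells with the G2/M list, with or without the S phase list, were 6.88 and 5.84% of sgArid1a cells and 2.20 and 2.47% of sgScr cells. Among cycling cells their share was 35.4 and 32.1% in sgArid1a and 26.3 and 28.5% in sgScr. The rule also took naive-like cells, which were 3.46 and 4.38% of the cycling cells in sgArid1a and 22.2 and 21.5% in sgScr.

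Member UMIs sat in these cells far beyond their number. Cycling cells held 84.7 and 84.3% of all member UMIs in sgArid1a and 82.5 and 81.9% in sgScr, while they held 37.9 and 39.9% of all UMIs in sgArid1a and 18.0 and 18.4% in sgScr. When the classes of every library were weighted by the average sgScr mix, a calculation added after the data were seen, the summed level was 1238 and 1223 CPM in sgArid1a and 930 and 1005 CPM in sgScr. The difference of 263 CPM under that mix compares with 1019 CPM under each library's own mix.

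Within the cycling cells the summed level overlapped between the groups, while the counts per cell at equal depth did not. The members held 4413 and 4203 CPM in sgArid1a and 4202 and 4517 CPM in sgScr. At 1500 UMIs per cell, 51.5 and 48.1% of sgArid1a cycling cells held 3 or more member UMIs, against 33.9 and 33.7% of sgScr cycling cells, and the mean was 5.46 and 5.06 member UMIs per cell against 3.91 and 4.57. A sum weights cells by their UMIs, and the share and the mean weight every cell equally. The share and the mean were higher in both sgArid1a libraries, and neither was tested. The median cycling cell had 7806 and 12934 UMIs in sgArid1a and 6408 and 6695 UMIs in sgScr before thinning, and the part of the naive-like cells in these values was not tested. Of 34 members tested by edgeR, 4 were called higher and 3 lower, beside 11.3% of all genes called higher and 10.4% called lower. Both counts are near the shares over all genes and are no result about the members as a set. The median log2 fold change was 0.00. The members called higher were Cenpa (0.35 ± 0.08), Birc5 (0.31 ± 0.08), Ube2c (0.31 ± 0.08) and Cdk1 (0.25 ± 0.08, log2 with SE; edgeR adjusted p = 0.0010, 0.0033, 0.0034 and 0.019). The members called lower were Kif23 (-0.36 ± 0.09), Mki67 (-0.30 ± 0.09) and Ckap2l (-0.28 ± 0.10, log2 with SE; edgeR adjusted p = 0.0046, 0.015 and 0.038).

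The values behind these calls were close together. Cenpa had 398 and 394 CPM in sgArid1a cycling cells, against 334 and 324 CPM in sgScr cycling cells, and Kif23 had 50.7 and 47.3 CPM, against 64.5 and 69.1 CPM. Mki67 had 296 and 249 CPM in sgArid1a cycling cells, against 317 and 399 CPM in sgScr ones, with a wider gap between the sgScr libraries than between the groups' nearest libraries. These counts moved with the bar for a cycling cell. At 2 list UMIs 27 were higher and 0 lower, beside 2451 higher and 2372 lower of 11636 genes. At 5 list UMIs 0 were higher and 10 lower, beside 606 higher and 522 lower of 10553 genes. When cells were thinned to 2500 UMIs 17 were higher and 0 lower, beside 1840 higher and 1822 lower of 11476 genes. DESeq2 called 4 higher and 0 lower, and edgeR called 1 higher and 0 lower without sgScr replicate 2, 1 higher and 3 lower without sgScr replicate 1, and 4 higher and 9 lower without sgArid1a replicate 1.

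The cycling cells were then split by stage, and the difference between the stages was not tested. In cells with the S phase list only, all 34 log2 fold changes were above 0 and 18 members were called higher by edgeR (11.5% of all genes higher), with a median of 0.41. The members summed to 2112 and 2085 CPM in sgArid1a and 1644 and 1511 CPM in sgScr. Birc5 had 189 and 189 CPM in these sgArid1a cells, against 109.2 and 101.5 CPM in sgScr cells, a log2 fold change of 0.91 ± 0.09 (SE; edgeR adjusted p = 1.1e-06). Nuf2 rose by 0.86, Ccna2 by 0.69 and Cdca8 by 0.64, while neither checkpoint gene (Bub1, Bub1b) nor Plk1 or Aurka passed the test.

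The S-only class was made of different cells in the groups. Exhausted-like cells were 40.9 and 37.8% of it in sgArid1a and 21.8 and 21.7% in sgScr, while naive-like cells were 5.36 and 6.45% in sgArid1a and 28.8 and 29.7% in sgScr. The median S-only cell had 6682 and 10798 UMIs in sgArid1a and 4547 and 4463 UMIs in sgScr, and the part of makeup and depth in the 18 calls was not tested. The count called higher was 33 at 2 list UMIs (2431 of 10946 genes higher) and 3 at 5 list UMIs (290 of 10106 genes higher). It was 30 with thinning to 2500 UMIs (1764 of 10724 genes higher). Without sgScr replicate 2 the median log2 fold change of the members was 0.36.

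In G2/M-staged cells the summed level was lower in both sgArid1a libraries than in either sgScr library. Counts per cell at equal depth overlapped between the groups. The members summed to 7608 and 7389 CPM in 614 and 726 sgArid1a cells and to 7690 and 8384 CPM in 164 and 171 sgScr cells. At 1500 UMIs per cell the mean was 11.51 and 11.62 member UMIs in sgArid1a and 11.49 and 13.74 in sgScr. The share with 3 or more was 91.9 and 94.5% in sgArid1a and 87.8 and 93.0% in sgScr. In cells with the G2/M list alone the sums overlapped too, at 9566 and 9478 CPM in sgArid1a and 8319 and 10872 CPM in sgScr. Of 34 log2 fold changes 26 were below 0, with a median of -0.10. Only Ube2c was called higher by edgeR (0.34 ± 0.09, adjusted p = 0.018), which is near the share of 3.29% of all genes called higher. Kif23 (-0.46 ± 0.10), Mki67 (-0.44 ± 0.10) and Ckap2l (-0.43 ± 0.11, edgeR adjusted p = 0.0054, 0.0091 and 0.015) were called lower, beside 2.66% of all genes called lower.

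Ube2c stood at 996 and 1041 CPM in the G2/M-staged cells of sgArid1a and at 838 and 870 CPM in those of sgScr. Kif23 stood at 85.6 and 85.5 CPM in sgArid1a and at 120 and 130 CPM in sgScr. Mki67 stood at 489 and 421 CPM in sgArid1a and at 565 and 745 CPM in sgScr. The groups did not overlap for 22 of the 34 members (3 higher and 19 lower in sgArid1a), Ube2c, Kif23 and Mki67 among them. The share over all genes was not computed, so that count is no result about the members as a set. Cycling-like cells were 67.3 and 70.2% of these cells in sgArid1a and 62.2 and 62.0% in sgScr. Among those with the G2/M list alone, naive-like cells were 0 and 0% in sgArid1a and 10.5 and 4.35% in sgScr. Memory-like cells there were 3.23 and 3.24% in sgArid1a and 8.77 and 10.9% in sgScr. The part of this makeup in the calls was not tested. Cells with several Trbv segments (2 or more UMIs of each), doublets among them, were 11.4 and 17.6% of G2/M-staged cells in sgArid1a and 26.8 and 22.2% in sgScr. Without those cells 2 members were called higher and 2 lower, without sgArid1a replicate 2 only 1 was called (lower), and without sgScr replicate 2 edgeR called 0 (with all libraries 2 higher and 6 lower at an unadjusted p under 0.05; DESeq2 called 4, with the median of all genes at 0.10 on the log2 scale, against -0.02 by edgeR).

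**Figure D3:**
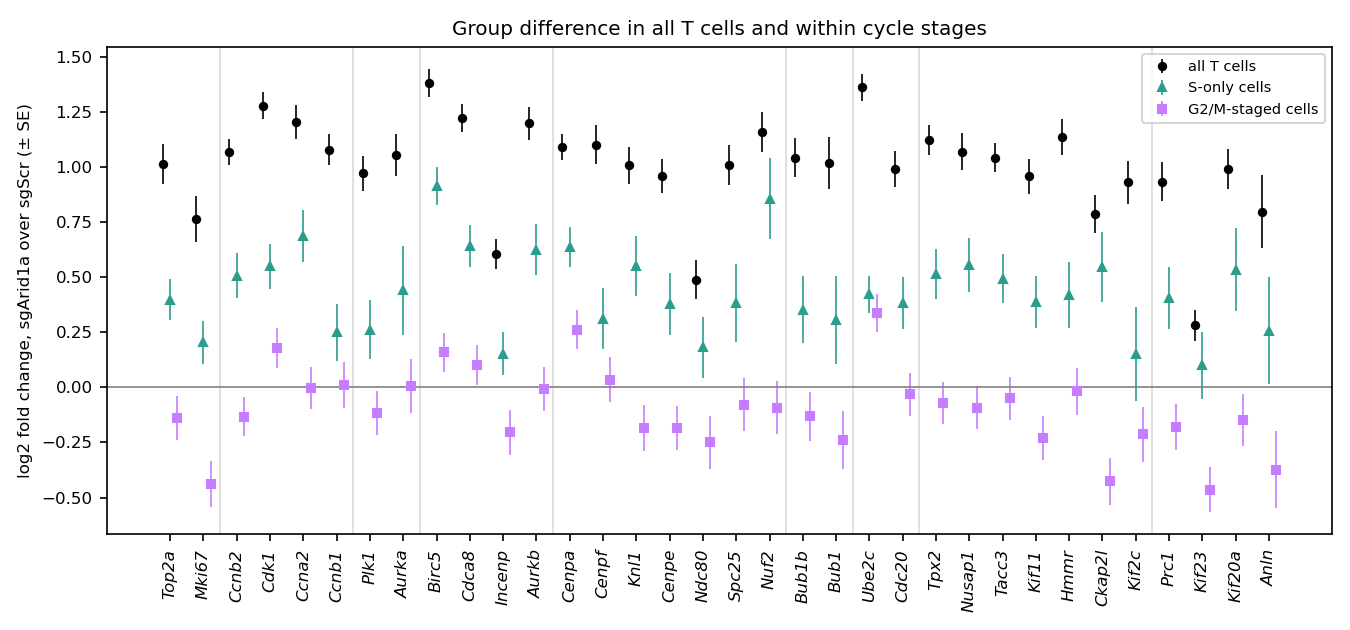
Log2 fold change of each mitosis gene, sgArid1a over sgScr, with its standard error, in all T cells (black circles), S-only cells (green triangles) and G2/M-staged cells (purple squares). The circles lie between 0.28 and 1.38, the triangles between 0.10 and 0.91, and the squares spread on both sides of 0 from -0.46 to 0.34.

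The cells below the bar of both lists still carried mitosis UMIs, and more of them in sgArid1a. They held 516 and 522 CPM in sgArid1a and 196 and 225 CPM in sgScr, and 2.70 and 2.33% of them against 0.542 and 0.854% held 3 or more member UMIs. By edgeR 32 of 34 members were called higher (22.8% of all genes higher), with a median log2 fold change of 1.55. The exceptions were Kif23 at 9.59 and 8.76 CPM in sgArid1a against 10.8 and 9.69 CPM in sgScr, and Ndc80 at 8.06 and 7.40 CPM against 7.83 and 8.30 CPM. Incenp had the smallest called rise, 0.31. These 3 are among the 4 genes that were often found without other members. The remaining gene of those 4, Cenpa, was called higher here, and it was the one most often found in naive-like cells (6.64%).

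Cells under the bar are not all resting. Exhausted-like cells were 11.8 and 10.7% of them in sgArid1a and 4.47 and 5.08% in sgScr, and naive-like cells 21.01 and 23.9% in sgArid1a against 57.0 and 55.6% in sgScr. In those with 0 UMIs of both lists, chosen after the data were seen, members summed to 189 and 179 CPM in sgArid1a and to 118 and 118 CPM in sgScr. There 27 members passed the filter on low counts, 14 were called higher and 1 lower, beside 1692 higher and 1273 lower of 11098 genes tested. With cells thinned to 2500 UMIs, 20 of 34 were called higher and 2 lower, beside 2125 higher and 1808 lower of 11968 genes tested. In the naive-like clusters alone the summed level was 138 and 124 CPM in sgArid1a and 97.2 and 107 CPM in sgScr.

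The difference between cycling and non-cycling cells was itself tested. Both classes were cut by cell cycle lists that rose together with the members in all T cells. The test cannot tell an effect of that cut from a difference between the classes. For 32 of 34 members the group effect was lower in cycling than in non-cycling cells by an edgeR interaction term with the library as a block, beside 8.93% of all genes lower and 2.37% higher. The largest difference was that of Bub1 (-2.59 ± 0.30 on the log2 scale; edgeR adjusted p = 1.0e-06) and the smallest called was that of Incenp (-0.44 ± 0.09; edgeR adjusted p = 0.00094). Bub1 stood at 2.52 and 2.31 CPM in non-cycling sgArid1a cells and at 0.207 and 0.692 CPM in non-cycling sgScr cells. The count was 15 lower and 2 higher with thinning to 2500 UMIs, beside 897 lower and 295 higher of 12355 genes. It was 11 lower against the cells with 0 list UMIs, beside 617 lower and 148 higher of 11723 genes.

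The members were not spread evenly over the stages. Cells with the G2/M list alone (155 and 185 in sgArid1a, 57 and 46 in sgScr) were set against cells with both lists (459 and 541 in sgArid1a, 107 and 125 in sgScr). Cdc20 had the highest log2 ratio, 1.26 ± 0.28 (SD over 4 libraries). Cenpa followed at 1.02 ± 0.16, then Ccnb1 at 0.96 ± 0.39, Ccnb2 at 0.94 ± 0.12, Cenpf at 0.85 ± 0.21 and Ube2c at 0.84 ± 0.35. Neighbours in that order do not differ beyond their spread. At the other end Spc25 (-0.34 ± 0.18), Top2a (-0.34 ± 0.11) and Aurkb (-0.25 ± 0.18) were below 0 in 4 of 4 libraries. Ccna2, the cyclin of S phase and early mitosis, was at 0.10 ± 0.21, and Cdk1 at 0.06 ± 0.24.

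**Figure D4:**
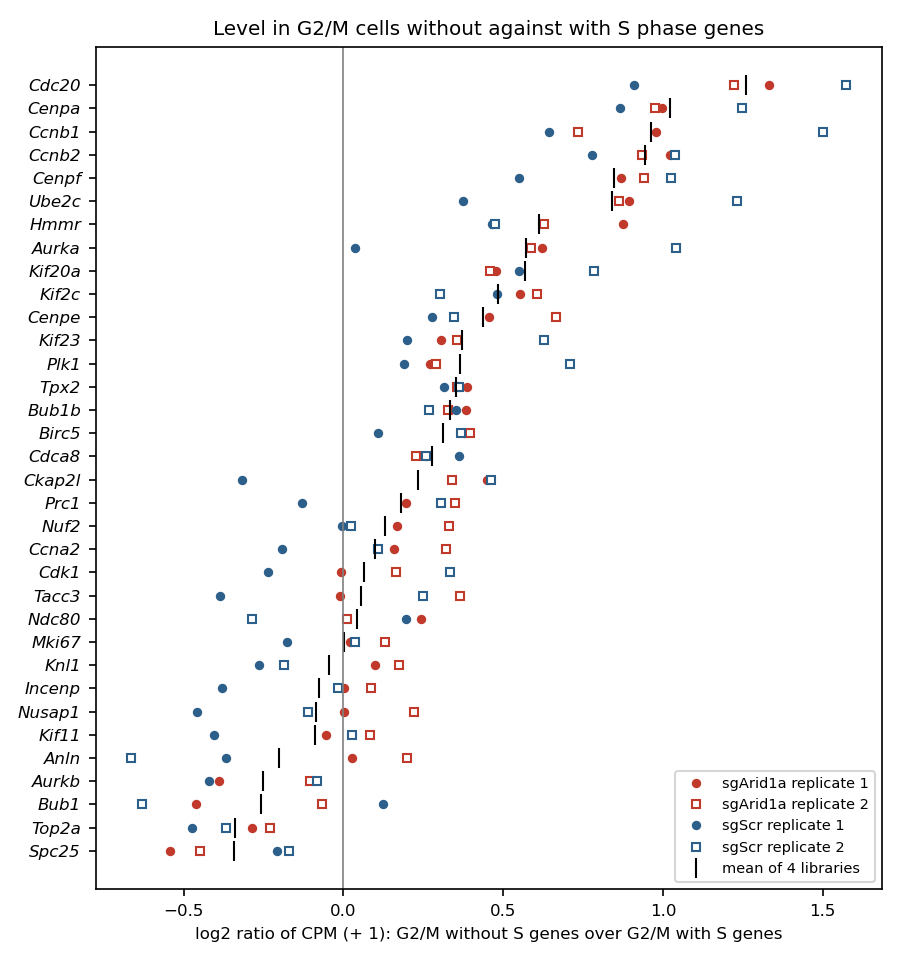
Log2 ratio of each mitosis gene's CPM (pseudocount 1) in cells with the G2/M list only over cells with both lists, one point per library, ordered by the mean of 4 libraries (black bars). Cdc20 is at the top with a mean of 1.26 and Spc25 at the bottom with -0.34, and 17 genes lie above 0 in all 4 libraries.

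Cells of 2 receptor segments held a different share of mitosis UMIs in the groups. Trbv13-1 and Trbv20 are T cell receptor beta segments, chosen with earlier results of these data known. Trbv13-1 cells were 10.9 and 10.8% of sgArid1a cells and 6.02 and 6.21% of sgScr cells, and Trbv20 cells 6.53 and 6.32% against 2.14 and 1.99%. Of Trbv13-1 cells 32.0 and 30.8% held 3 or more member UMIs in sgArid1a, against 4.46 and 4.65% in sgScr. Of Trbv20 cells 33.6% of 583 and 30.4% of 786 did in sgArid1a, against 0.629% of 159 and 2.17% of 138 in sgScr. In cells with any other segment the shares were 8.23 and 6.47% in sgArid1a and 3.95 and 4.43% in sgScr.

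**Figure D5:**
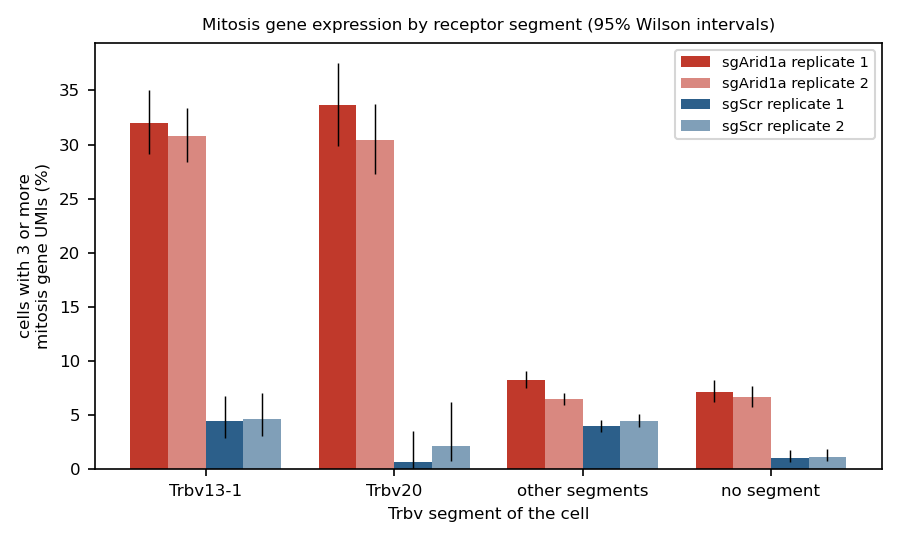
Share of cells with 3 or more mitosis gene UMIs by the Trbv segment of the cell, one bar per library with a 95% Wilson interval. Trbv13-1 and Trbv20 stand above 30% in both sgArid1a libraries and below 5% in both sgScr libraries, and the other groups of cells show smaller gaps.

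Trbv13-1 cells made up 28.6 and 31.3% of the sgArid1a cells with 3 or more member UMIs, against 8.06 and 7.81% of the sgScr ones. Trbv20 cells made up 18.0 and 18.1% in sgArid1a, against 0.403 and 1.17% in sgScr. Without both segments the members summed to 1397 and 1398 CPM in sgArid1a and to 910 and 1007 CPM in sgScr. In all T cells 31 of 34 members were then still called higher by edgeR, beside 2608 higher and 2402 lower of 12497 genes tested. The median log2 fold change was 0.53 in place of 1.03, and Kif23 stood at -0.02. In S-only cells 5 were called higher without them (652 of 10001 genes higher), and in cycling cells 0 higher and 3 lower (590 higher and 432 lower of 10638 genes). In G2/M-staged cells edgeR called 0 (3 higher and 3 lower at an unadjusted p under 0.05), beside 122 higher and 78 lower of 9338 genes. DESeq2 was not run on the cells without both segments.

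The lists used for staging were read from the same fits. All 34 S phase genes rose in all T cells, led by Dtl (1.40), and 36 of 38 G2/M staging genes rose and none fell, led by Ska1 (1.42), beside 28% of all genes higher and 26.4% lower. In cycling cells, which these lists themselves select, 9 of 34 S phase genes rose and none fell, and 2 of 38 G2/M staging genes rose and 2 fell, beside 11.3% of all genes higher and 10.4% lower. The G2/M staging counts are below those shares in both directions.

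Other genes of mitosis, which are no members, were read from the same fits. In all T cells 41 of 65 were called higher by edgeR and 4 lower, beside 28% of all genes higher and 26.4% lower. In cycling cells 7 of 65 were called higher and 2 lower, beside 11.3% of all genes higher and 10.4% lower, so the count of higher genes there is near the share over all genes. Of 21 further kinetochore subunits 17 rose, led by Cenpm (1.35), and of 7 checkpoint partners 5 rose, led by Kntc1 (0.99). The condensin list had 4 of 6 higher, led by Smc2 (0.94). Of 17 anaphase-promoting complex genes 8 rose, led by its inhibitor Fbxo5 (1.06), and Anapc16, a subunit, fell by 0.22.

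Of 5 regulators of CDK1, 4 rose in all T cells and 1 fell, beside 28% of all genes higher and 26.4% lower. In cycling cells 1 of the 5 rose and 1 fell, beside 11.3% of all genes higher and 10.4% lower. For so short a list those cycling counts are near the shares over all genes and no result about the list. Cks1b, a small CDK-binding protein, rose by 1.47 ± 0.06 in all T cells and by 0.47 ± 0.08 in cycling cells, while the phosphatase Cdc25b fell by 0.22 ± 0.06 and 0.51 ± 0.10 on the log2 scale. Of 9 genes of the MuvB, DREAM, B-Myb and FoxM1 list, 3 rose in all T cells and 2 fell, beside 28% of all genes higher and 26.4% lower, which is near the share over all genes and no result about the list. Of those that fell, Lin52, a MuvB subunit, was at -0.26. Mybl2 (B-Myb) had 9.42 and 10.8 CPM in sgArid1a against 5.16 and 5.84 CPM in sgScr, and Foxm1 had 7.08 and 7.39 CPM against 4.24 and 5.12 CPM. In cycling cells neither passed the test, and of the 9 genes 0 rose and 1 fell, the latter near the share of all genes lower. That gene was Rbl2, a pocket protein of DREAM, which fell by 0.47 ± 0.09.

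Over the 56 sums of cluster and library, the genes outside all cell cycle lists whose level was most like that of the summed members were Lmnb1 (Pearson r = 0.95), Pclaf (0.94), Tmpo (0.94), Ccdc34 (0.93), Hnrnpa2b1 (0.91), Srsf2 (0.91), Rgs16 (0.91), Ciapin1 (0.91), Tox (0.91) and Arl6ip1 (0.91). The correlation is a description over 5388 genes of at least 20 CPM. The 56 sums share 4 libraries and differ in depth between clusters, from 1277 UMIs in the median cell led by Kit and Penk to 14436 in the median cycling-like cell.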

How the data were processed

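The authors deposited gene-by-cell matrices of UMI counts, whole numbers with no normalization, 1 per library. Per the file headers they were made with Cell Ranger 6.0.1, and the submitters' processing notes name Cell Ranger 3.0.2, Seurat and mm10. No paper was used. Members and lists were chosen with earlier results of these data known. Values per library were given for the member with the highest level in each role group and those with the largest and smallest fold changes. Of other lists, the called gene with the largest rise and fall was named, with Foxm1, Mybl2, Pcna, Cd3e and Cd8a. A few further members (Mki67, Cdk1, Incenp, Ndc80 and Bub1) and Rbl2 were shown after their values were seen.

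Barcodes under 500 genes or over 10% mitochondrial UMIs were dropped. Clusters were made with scanpy 1.11.5 and leidenalg 0.10.2 (resolution 0.8, 30 components, 15 neighbours, 2000 variable genes), without integration. Members, other listed cell cycle genes, receptor, mitochondrial and ribosomal genes were left out, and replication histone genes were not. Clusters were named from marker lists, so names may differ from the study's. A cluster of 56 cells was left out as not T cells. No doublet caller was run. Cells with 2 or more Trbv segments (6.73 and 13.2% of sgArid1a and 11.1 and 10.6% of sgScr T cells) were removed in an alternative. For shares and stages, cells were thinned to 1500 UMIs. UMI counts were summed per library and cell set, and tested with edgeR 4.0.16 (quasi-likelihood, TMM, filterByExpr, threshold 0.05) in R 4.3.3, with DESeq2 1.42.0 as the alternative. Standard errors are the fold change divided by the square root of F. Each cluster needed 50 cells in every library. Per library, 32201336 to 81450019 UMIs were summed. The scripts were tested on simulated data.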

Additional observations from a re-analysis of the deposited data

Results flagged for a closer look

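The group effect differed between cycling and non-cycling cells for 32 of 34 members, by an edgeR interaction term, beside 8.93% of all genes lower and 2.37% higher. The classes were cut by cell cycle lists that rose with the members, and the part of that cut was not tested. The differences of log2 fold changes, cycling minus non-cycling, reached from -0.44 for Incenp to -2.59 for Bub1 among those called.

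Trbv20 cells stood above cells of other segments in the sgArid1a libraries and below them in the sgScr libraries. In sgScr that order is within counting error. The share of cells with 3 or more member UMIs was higher in Trbv20 cells by 25.4 and 23.9 percentage points in the sgArid1a libraries, and in the sgScr libraries the difference, Trbv20 minus other segments, was -3.32 and -2.26 points. The sgScr values rest on 1 of 159 and 3 of 138 Trbv20 cells. Their Wilson intervals were 0.111 to 3.48% and 0.742 to 6.20%. Those overlap the intervals of the other segments in sgScr, 3.46 to 4.51% and 3.89 to 5.05%. The difference between the groups was not tested.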

How the results depend on the processing

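The 34 calls in all T cells were 34 under every alternative but 2, with 33 without sgScr replicate 2 and 31 without Trbv13-1 or Trbv20 cells. The cause of the changes listed next was not tested. Single libraries left out gave 1 to 13 calls in cycling cells (7 with all libraries), 30 to 33 in non-cycling cells (32), 11 to 23 in S-only cells (18), 0 to 5 in G2/M-staged cells (4), 31 to 32 for the difference of effects (32), 17 to 30 of 185 tests within clusters (29), 0 to 4 in exhausted-like cells (6), 0 to 8 in cycling-like cells (3), 2 to 13 in the Ccl1 and Xcl1 cluster (12), and 5 to 14 other mitosis genes in cycling cells (9). DESeq2 gave 4 in cycling cells, 11 within clusters, 3 in exhausted-like, 1 in cycling-like and 7 in Ccl1 and Xcl1 cells, 12 in S-only cells and 5 other mitosis genes. No filter on low counts gave 49 within clusters. Without cells of several Trbv segments 29 were called in S-only cells. Without Trbv13-1 or Trbv20 cells 3 were called in cycling, 5 in S-only and 0 in G2/M-staged cells, with 5 other mitosis genes. At 2 list UMIs the counts were 27 in cycling and 33 in S-only cells, with 31 other mitosis genes. At 5 list UMIs they were 3 in S-only and 2 in G2/M-staged cells. The direction in G2/M-staged cells turned with the setting. It was 1 higher and 3 lower in the main fit, and 2 higher and 0 lower at 5 list UMIs (143 higher and 126 lower of 9010 genes). At 2500 UMIs it was 0 higher and 7 lower (635 higher and 512 lower of 10437 genes). Thinning to 2500 UMIs gave 17 in cycling, 30 in S-only and 7 in G2/M-staged cells, 17 for the difference of effects and 20 other mitosis genes. Cells with 0 list UMIs, chosen after the data were seen, gave 15 in non-cycling cells and 11 for the difference.

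The difference in the share of cells with 3 or more member UMIs, 7.89 percentage points, was 10.7 without thinning, 15.2 at 2500 UMIs, 11.1 for 1 or more UMIs and 5.77 for 5 or more. The difference in summed level, 1019 CPM, was 1115 without cells of several Trbv segments, 439 without Trbv13-1 or Trbv20 cells and 263 at the sgScr mix.

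Signs turned for single genes. At 2 list UMIs the log2 fold changes in cycling cells were 0.31 for Bub1, 0.38 for Bub1b, 0.29 for Cenpe, 0.11 for Ckap2l, 0.26 for Kif11, 0.33 for Kif20a, 0.33 for Knl1, 0.088 for Mki67, 0.38 for Nusap1, 0.29 for Plk1, 0.28 for Prc1 and 0.37 for Top2a, and at 2500 UMIs 0.27 for Nusap1. The difference of effects was 0.46 for Kif23 and 0.41 for Ndc80 at 2 list UMIs, 0.038 for Incenp, 0.47 for Kif23, 0.58 for Ndc80, 0.24 for Spc25 and 0.012 for Tacc3 at 2500 UMIs, and 0.083 for Spc25 and 0.048 for Tacc3 against cells with 0 list UMIs. Spc25 stood at -0.031 in non-cycling cells with 0 list UMIs. Without Trbv13-1 or Trbv20 cells Kif23 stood at -0.018 in all T cells and Ube2c at -1.79e-05 in S-only cells.

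Same-numbered libraries did not deviate together (correlation of deviations -0.0426 over 12792 genes in all T cells), and the main tests did not pair them. The labels do not say whether the numbers pair libraries. The correlation rests on a single difference between libraries per group, so it cannot settle whether same-numbered libraries shared a batch. With the replicate number as a block, edgeR called 34 in all T cells, 8 in cycling, 32 in non-cycling, 22 in S-only and 5 in G2/M-staged cells, 32 for the difference, 35 within clusters, 6 in exhausted-like, 2 in cycling-like and 16 in Ccl1 and Xcl1 cells, and 44 other mitosis genes in all T cells and 12 in cycling cells. The lone library left in a group was assumed to vary like the other group. Depth limits the clusters with few mitosis UMIs, where 1 to 13 members could be tested in 9 clusters.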
